A study of Mus musculus with 18 samples.

Results

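Transcripts of 9 mast cell genes were measured in 3 fat depots of mice with and without caspase-6, namely the inguinal (iWAT) and epididymal (eWAT) white depots and brown fat (BAT). The genes were Cma1, Mcpt4, Tpsb2, Tpsab1, Cpa3, Hdc, Kit, Mrgprb1 and Gata2. They were chosen by symbol as markers of mast cells, and all 9 were found among the 25124 genes of each count table. Poly(A) RNA of male mice was sequenced, with 3 libraries for each of 6 groups made by 3 depots and 2 genotypes, 18 libraries in all. The genotypes were wildtype (WT) and a whole-body caspase-6 knockout (C6KO), bred from heterozygous parents on a C57BL/6J background and used as littermates and cagemates. Every group was fed a high fat diet (HFD) with 60% fat for 12 weeks, begun at 10 to 14 weeks of age, so no lean group was part of the comparison. C6KO lacked caspase-6 in all cells, mast cells included, and the depots were whole tissue. The question put to the data was how much mast cell RNA each depot held and whether it differed between the genotypes.

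Mast cells are tissue-resident cells of the immune system that store proteases, histamine and heparin in granules and release them when receptors on their surface are triggered. They depend on stem cell factor, which acts through the receptor Kit, and they settle along vessels and in connective tissue, adipose tissue included. In mice, the connective tissue type holds chymases, tryptases and carboxypeptidase A3 in its granules. Cma1 and Mcpt4 encode chymases, Tpsb2 and Tpsab1 encode tryptases, and Cpa3 encodes the carboxypeptidase. Hdc encodes histidine decarboxylase, the enzyme that makes histamine, which other cell types can also express. Mrgprb1 encodes a receptor of the Mas-related family, and Gata2 a transcription factor of mast cells, blood progenitors and endothelial cells. Kit is carried by blood progenitors and pigment cells as well.

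In genome build mm10, the 2 chymase genes lie on chromosome 14, Cma1 at chr14:55941451-55944675 and Mcpt4 at chr14:56059744-56062310, both on the minus strand. The 2 tryptase genes lie on chromosome 17, Tpsb2 at chr17:25366333-25368092 on the plus strand and Tpsab1 at chr17:25343245-25345562 on the minus strand. Cpa3 lies at chr3:20215616-20242181 (minus strand), Hdc at chr2:126593660-126618678 (minus), Kit at chr5:75574987-75656721 (plus), Mrgprb1 at chr7:48444113-48456342 (minus) and Gata2 at chr6:88198664-88207032 (plus). The values are counts of reads over the exons of 1 transcript a gene. Only Cpa3 overlapped another annotated gene, the small microRNA gene Mir7007. Over their aligned bases, the exon sequences of Tpsb2 and Tpsab1 were 76.1% identical, with a longest shared run of 39 bases. Those of Cma1 and Mcpt4 were 69.4% identical over the aligned bases, with a longest shared run of 27 bases. Neither pair shared any stretch of 50 bases, and how reads were divided between the genes of a pair was not tested.

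The stretches of DNA just before the genes that moved together (Cma1, Mcpt4, Cpa3 and Mrgprb1) and before Hdc, which moved apart from them, are shown because GATA factors, Gata2 among them, act on mast cell genes. Each is the RefSeq sequence (GRCm38.p6) of the 250 bases before the start site, 5′ to 3′ on the strand of the gene. Capitals mark matches to the GATA motif, searched on both strands with AGATAA as the first form, AGATAG as the next, and TGATAA together with TGATAG as the remaining forms.
Cma1, chr14:55944676-55944925, minus strand: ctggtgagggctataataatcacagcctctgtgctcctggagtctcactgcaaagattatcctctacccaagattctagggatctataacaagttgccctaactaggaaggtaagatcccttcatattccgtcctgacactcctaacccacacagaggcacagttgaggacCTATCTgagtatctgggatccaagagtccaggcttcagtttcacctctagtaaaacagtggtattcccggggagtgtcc
Mcpt4, chr14:56062311-56062560, minus strand: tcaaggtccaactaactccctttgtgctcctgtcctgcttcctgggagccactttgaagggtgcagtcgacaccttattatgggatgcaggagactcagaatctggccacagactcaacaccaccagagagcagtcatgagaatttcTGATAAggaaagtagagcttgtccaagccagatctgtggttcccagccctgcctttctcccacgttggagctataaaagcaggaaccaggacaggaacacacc
Cpa3, chr3:20242182-20242431, minus strand: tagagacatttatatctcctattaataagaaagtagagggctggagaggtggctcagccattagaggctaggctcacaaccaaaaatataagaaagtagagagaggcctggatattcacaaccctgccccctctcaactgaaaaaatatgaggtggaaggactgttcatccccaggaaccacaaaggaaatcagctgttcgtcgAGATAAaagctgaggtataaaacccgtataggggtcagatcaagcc
Mrgprb1, chr7:48456343-48456592, minus strand: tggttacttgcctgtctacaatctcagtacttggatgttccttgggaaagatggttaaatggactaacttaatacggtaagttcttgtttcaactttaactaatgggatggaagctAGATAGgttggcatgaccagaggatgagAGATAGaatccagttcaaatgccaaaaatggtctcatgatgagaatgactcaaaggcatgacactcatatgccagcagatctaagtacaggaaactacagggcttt
Hdc, chr2:126618679-126618928, minus strand: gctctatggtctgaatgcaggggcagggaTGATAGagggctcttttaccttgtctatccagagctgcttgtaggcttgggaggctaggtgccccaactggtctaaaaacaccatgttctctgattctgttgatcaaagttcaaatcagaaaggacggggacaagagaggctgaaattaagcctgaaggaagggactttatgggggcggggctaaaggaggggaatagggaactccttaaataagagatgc

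The match in Cma1 is on the opposite strand, and its first base lies 79 bases before the start site. The others are on the strand of the gene, at 103 bases in Mcpt4, 46 in Cpa3, 134 and 106 in Mrgprb1 and 221 in Hdc. Of the 7 genes with a window in the reference table (all but Tpsb2 and Tpsab1), 5 held a match, and the windows of Kit and Gata2 held none. Among all 32851 windows of this length, 26.5% held the motif. The E-box CATGTG, a motif bound by Mitf, was in none of the 7 genes and in 12.3% of all windows, and CACGTG was in none of the 7 and in 6.02%. These matches describe letters only.

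Total counts per library ran from 16506034 to 19043523 in iWAT, from 16717201 to 19139694 in eWAT and from 7803108 to 12428683 in BAT, so the lowest genes were least well measured in BAT. Casp6, the deleted gene, did not overlap between the genotypes in any depot and was lower in C6KO, at 3.85 to 6.08 against 17.4 to 20.8 CPM (counts scaled to a library of 1000000) in eWAT. Casp6 reads remained in all libraries labelled C6KO. Its log2 fold change was -1.51 for iWAT (adjusted p = 0.0751), -1.85 for eWAT (0.0132) and -1.501 for BAT (0.0671) by edgeR's quasi-likelihood test. Among 8 skeletal muscle genes, summed CPM ran from 129 to 31180 in the WT libraries of BAT, and WT replicate 2 was the highest. Levels below are CPM scaled by TMM over the 18 libraries. A gene was called where the Benjamini-Hochberg adjusted p of that test over all genes fell below 0.05 with a change of 1.5-fold or more, and differences are log2 fold changes with their standard errors (SE).

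The granule genes were most abundant in eWAT, and there they were lower in C6KO by 2.13- to 3.67-fold. Cma1 stood at 64.9, 60.8 and 41.9 CPM in the 3 WT libraries of eWAT and at 18.8, 28.9 and 27.0 CPM in the 3 C6KO libraries. Mcpt4 stood at 70.7, 60.5 and 47.8 CPM in WT and at 18.6, 30.1 and 30.8 CPM in C6KO. In both chymases the lowest WT library lay above the highest C6KO library. Whether fewer mast cells or less of this RNA in each cell gave such a difference cannot be told apart in whole tissue.

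Cpa3 showed the same separation, with 66.2, 58.9 and 43.1 CPM in WT and 19.5, 21.9 and 29.8 CPM in C6KO. The tryptase gene Tpsb2 measured 91.8, 74.5 and 60.2 CPM in WT against 26.9, 35.8 and 43.0 CPM in C6KO. Tpsab1, whose transcript is known to be poorly spliced in C57BL/6 mice, was far lower, with 82, 92 and 47 reads in the WT libraries and 17, 21 and 22 reads in the C6KO libraries. Mrgprb1 had 16.6, 16.6 and 9.66 CPM in WT and 6.02, 5.24 and 6.77 CPM in C6KO. All 6 of these genes were therefore lower in C6KO without overlap, where 11.6% of the 14889 genes tested in eWAT were.

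Of the 9 genes, 4 were called lower in C6KO and none was called higher, where 0.208% of all genes tested were called lower and 0.746% were called in either direction. The log2 fold change was -1.23 (SE 0.201) for Cpa3, adjusted p = 0.0436 by edgeR. It was -1.87 (SE 0.342) for Tpsab1, adjusted p = 0.0468, and -1.16 (SE 0.206) for Cma1 and -1.24 (SE 0.234) for Mrgprb1, both with adjusted p = 0.0490 by edgeR. Mcpt4 (-1.16, SE 0.214) and Tpsb2 (-1.09, SE 0.201) missed the threshold narrowly, each with adjusted p = 0.0527. The median log2 fold change of the 9 genes was -1.16, beside -0.01 over all genes tested.

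These calls stood close to the threshold. Leaving out WT replicate 1, 2 or 3 or C6KO replicate 1 left 0 of the 4 calls, leaving out C6KO replicate 2 left Cma1 (adjusted p = 0.0495), and leaving out C6KO replicate 3 left Cpa3 (adjusted p = 0.0438), all by edgeR. Scaling by total counts, testing against a fold change of 1.5 and fitting all 18 libraries together each gave 0 calls, while DESeq2 and edgeR with no filter on low counts called all 6 genes. The direction held throughout, with log2 fold changes of Cma1 from -1.33 to -0.99, of Cpa3 from -1.44 to -1.10 and of Tpsb2 from -1.27 to -0.92 over 16 alternatives.

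**Figure D1:**
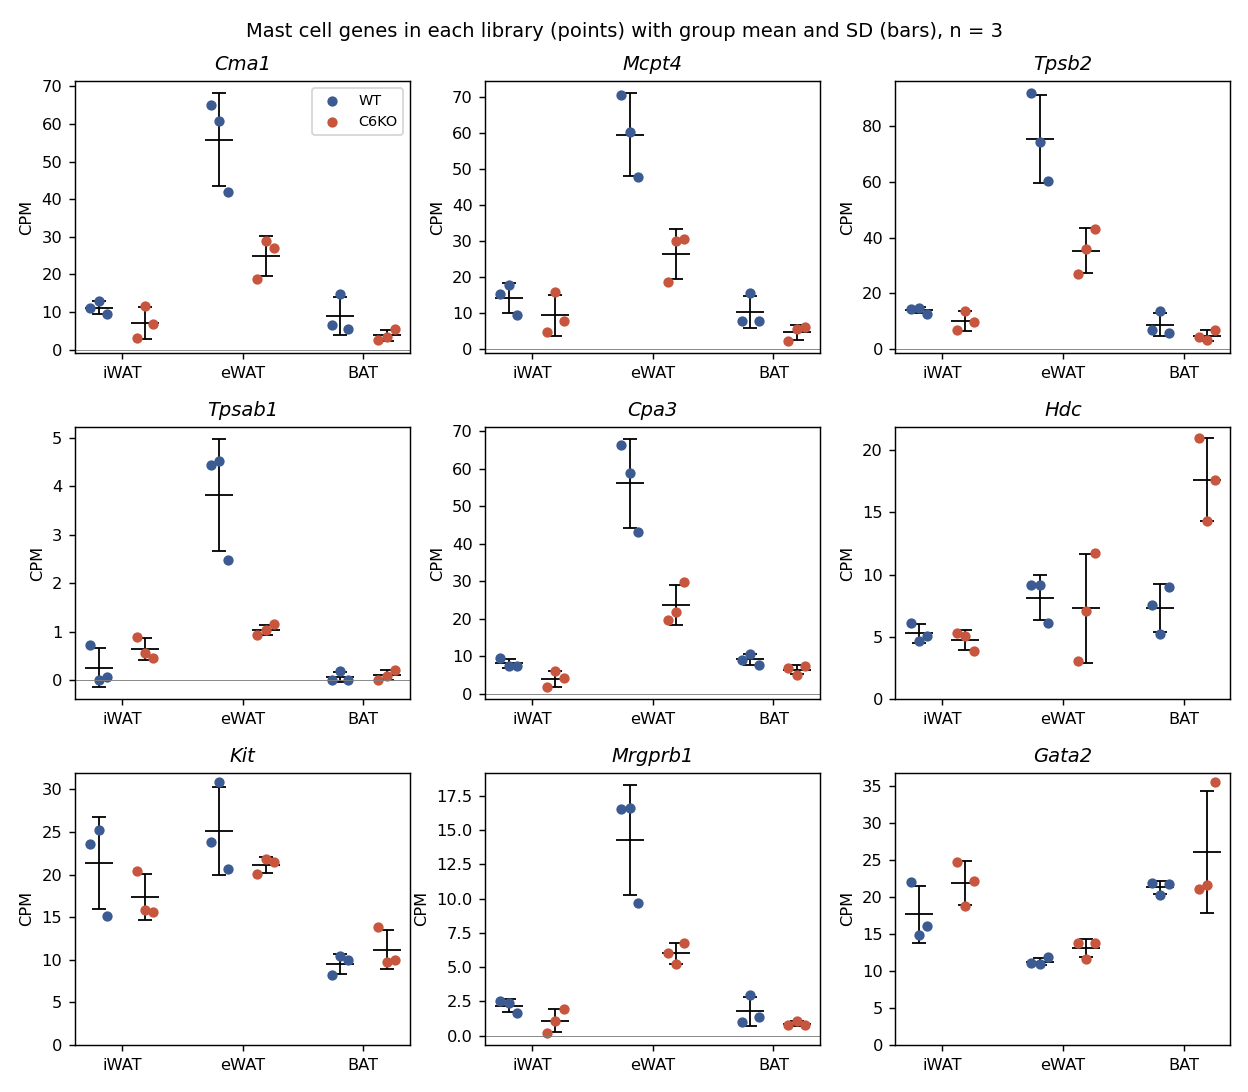
CPM (linear axes that differ between panels) of the 9 mast cell genes in each of the 18 libraries, by depot, with WT in blue and C6KO in red; points are libraries and bars the mean and SD of 3. The 5 protease genes and Mrgprb1 were highest in eWAT of WT and lower there in every C6KO library, whereas Hdc was highest in BAT of C6KO, at 14.3 to 21.0 CPM.

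Hdc, Kit and Gata2 did not share this difference in eWAT. Hdc measured 9.20, 9.20 and 6.07 CPM in WT and 3.04, 7.11 and 11.8 CPM in C6KO, so that the C6KO libraries lay on both sides of the WT range. Its log2 fold change was -0.15 (SE 0.445), adjusted p = 0.907 by edgeR. Kit, the receptor for stem cell factor, measured 23.9, 30.8 and 20.7 CPM in WT and 20.1, 21.8 and 21.5 CPM in C6KO, a log2 fold change of -0.25 (SE 0.156) with adjusted p = 0.470 by edgeR. Gata2 measured 11.0, 10.9 and 11.8 CPM in WT and 13.8, 11.7 and 13.8 CPM in C6KO, a log2 fold change of 0.22 (SE 0.147) with adjusted p = 0.507 by edgeR. In all 3 genes the ranges of the genotypes overlapped.

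In iWAT the means of Cma1, Mcpt4, Tpsb2 and Cpa3 were lower in C6KO, none of them was called, and the libraries of the genotypes overlapped for all but Cpa3. Cpa3 had 9.55, 7.49 and 7.34 CPM in WT and 1.85, 5.98 and 4.07 CPM in C6KO. Its log2 fold change of -1.03 (SE 0.384) did not pass after adjustment (adjusted p = 0.242 by edgeR). Cma1 had 11.2, 13.0 and 9.41 CPM in WT and 3.14, 11.6 and 6.77 CPM in C6KO. Mcpt4 had 15.4, 17.7 and 9.58 CPM in WT and 4.71, 15.9 and 7.74 CPM in C6KO. Tpsb2 had 14.5, 14.7 and 12.7 CPM in WT and 6.90, 13.7 and 9.69 CPM in C6KO. In each of these genes C6KO replicate 1 was the lowest library and C6KO replicate 2 lay within or near the WT range.

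None of the 8 genes tested in iWAT was called by edgeR or by DESeq2, and Cpa3 alone had an unadjusted p below 0.05, as 16.5% of all genes did. Over all 14533 genes, 0.0275% were called, and 12.3% were lower in C6KO without overlap. The estimates for Cma1, Mcpt4 and Tpsb2 were -0.63 (SE 0.411), -0.59 (SE 0.438) and -0.46 (SE 0.246). Leaving out C6KO replicate 1 brought them to -0.28, -0.26 and -0.25, and leaving out C6KO replicate 2 to -1.17, -1.19 and -0.75, so that single libraries set their size. Mrgprb1 had 42, 40 and 29 reads in WT and 4, 20 and 34 reads in C6KO (-0.98, SE 0.643, adjusted p = 0.474 by edgeR). Tpsab1, with 12, 0 and 1 reads in WT and 16, 10 and 8 reads in C6KO, had too few to be tested. Hdc (4.64 to 6.11 CPM in WT and 3.84 to 5.27 CPM in C6KO), Kit (15.2 to 25.2 and 15.7 to 20.5 CPM) and Gata2 (14.9 to 22.01 and 18.8 to 24.7 CPM) overlapped between the genotypes.

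In BAT, Hdc was the gene that stood apart. It measured 7.59, 5.24 and 9.03 CPM in the 3 WT libraries and 21.0, 14.3 and 17.6 CPM in the 3 C6KO libraries. The lowest C6KO library was above the highest WT library, as it was in 7.44% of the 13595 genes tested. The log2 fold change was 1.29 (SE 0.254), a 2.44-fold higher level, with adjusted p = 0.0505 by edgeR, so it fell just short of a call. It was called by DESeq2 (adjusted p = 0.00167) and by edgeR with the size factors of DESeq2 (0.0484), with no filter on low counts (0.0247) and with at least 10 counts in every library (0.0422). Each library left out in turn gave no call, with log2 fold changes from 1.11 to 1.52 and adjusted p from 0.0610 to 0.198 by edgeR.

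The proteases in BAT leaned the other way. Cma1 had 6.57, 14.8 and 5.40 CPM in WT and 2.56, 3.42 and 5.47 CPM in C6KO. Mcpt4 had 7.74, 15.6 and 7.82 CPM in WT and 2.30, 5.57 and 6.22 CPM in C6KO. Tpsb2 had 6.86, 13.7 and 5.84 CPM in WT and 4.22, 3.33 and 6.97 CPM in C6KO. WT replicate 2 was the highest library for all 3 genes, and Mcpt4 alone of them did not overlap between the genotypes. Cpa3 had 9.05, 10.7 and 7.71 CPM in WT and 6.90, 5.03 and 7.29 CPM in C6KO, and like Mcpt4 it was lower in C6KO without overlap, where 12.4% of all genes were.

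None of the 7 genes tested in BAT was called by edgeR, where 1.24% of all genes were, and 3 (Cma1, Mcpt4 and Hdc) had an unadjusted p below 0.05. An unadjusted p below 0.05 was found for 13.2% of all genes. DESeq2 called Hdc only. The log2 fold changes were -1.23 (SE 0.458) for Cma1, -1.14 (SE 0.432) for Mcpt4, -0.87 (SE 0.416) for Tpsb2 and -0.51 (SE 0.265) for Cpa3. Without WT replicate 2 they were -0.60, -0.68, -0.35 and -0.35, whereas that of Hdc was 1.11. That library also held the most lymphocyte RNA in BAT, with 57.6 CPM over 10 T and NK cell genes and 92.8 CPM over 6 B cell genes, where the other BAT libraries had at most 10.7 and 4.35 CPM, and the values without it are those just given. Mrgprb1 had 7, 32 and 12 reads in WT and 6, 12 and 7 in C6KO, and Tpsab1 had at most 2 reads in any BAT library, so neither was tested. Kit (8.18 to 10.38 CPM in WT and 9.71 to 13.8 CPM in C6KO) and Gata2 (20.3 to 21.9 and 21.1 to 35.6 CPM) overlapped.

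**Figure D2:**
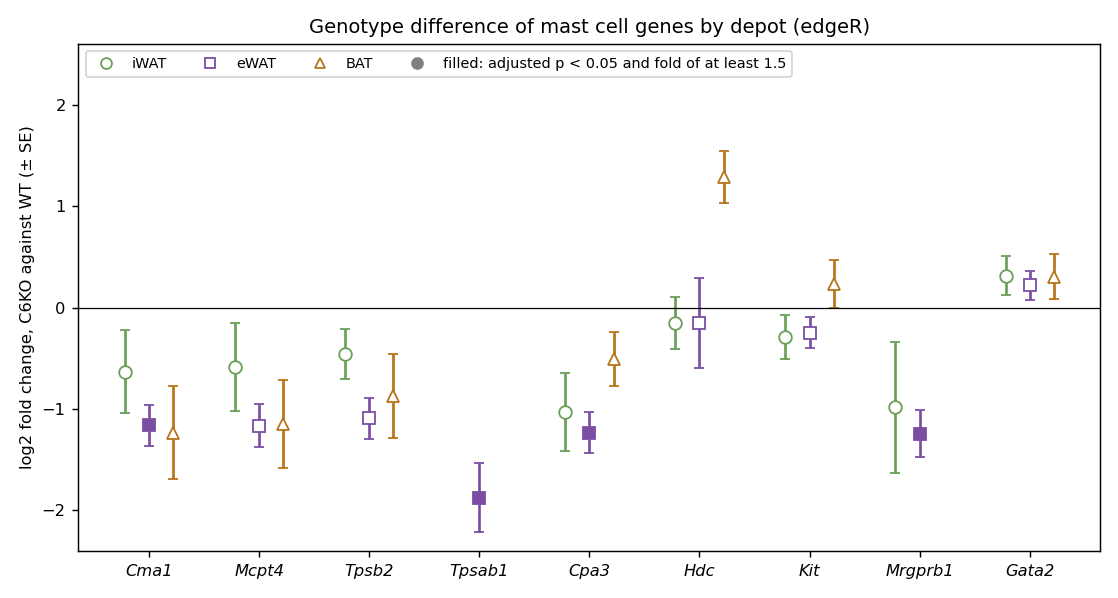
Log2 fold change of C6KO against WT (vertical axis, bars are SE, 3 libraries a group) for the 9 genes in iWAT, eWAT and BAT by edgeR; filled symbols were called, and genes not tested have no symbol. In eWAT 6 genes lay between -1.09 and -1.87, while Hdc lay at 1.29 in BAT.

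Whether the C6KO difference itself varied between depots was tested as an interaction over the 18 libraries. None of the 9 genes was called in any of the 3 interactions by edgeR or by DESeq2, where 0%, 0.183% and 0.536% of all genes were called by edgeR for eWAT against iWAT, BAT against iWAT and BAT against eWAT. Hdc had an unadjusted p below 0.05 in both interactions with BAT. Its C6KO difference was higher by 1.43 (SE 0.500) in BAT than in eWAT and by 1.43 (SE 0.506) in BAT than in iWAT, with unadjusted p = 0.0108 and 0.0118 and adjusted p = 0.251 and 0.341 by edgeR. Tpsab1 had unadjusted p = 0.0125 and adjusted p = 0.890 by edgeR for eWAT against iWAT, on the low counts given above. For Cma1, Mcpt4, Tpsb2, Cpa3 and Mrgprb1 no interaction had an unadjusted p below 0.05, so a difference in effect between eWAT and the other depots was not shown for them.

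The plot of Hdc against the summed proteases shows this divergence by library. The CPM of the 5 protease genes (Cma1, Mcpt4, Tpsb2, Tpsab1 and Cpa3) together came to 251 ± 51.8 (SD, n = 3) in eWAT of WT and 111 ± 24.1 in C6KO. In iWAT the sum was 47.8 ± 7.54 and 31.3 ± 15.3, and in BAT it was 37.3 ± 15.3 and 19.9 ± 5.50. Hdc as a percentage of that sum was 3.25% ± 0.261 in eWAT of WT and 6.18% ± 2.68 in eWAT of C6KO. It was 11.2% ± 2.21 in iWAT of WT and 18.1% ± 10.5 in iWAT of C6KO. In BAT it was 22.8% ± 12.3 in WT and 93.5% ± 33.5 in C6KO. In the 3 BAT libraries of C6KO it ran from 67.2% to 131%, and in the 3 of WT from 9.54% to 33.7%. These percentages compare CPM, not levels per length, and serve only to compare groups.

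**Figure D3:**
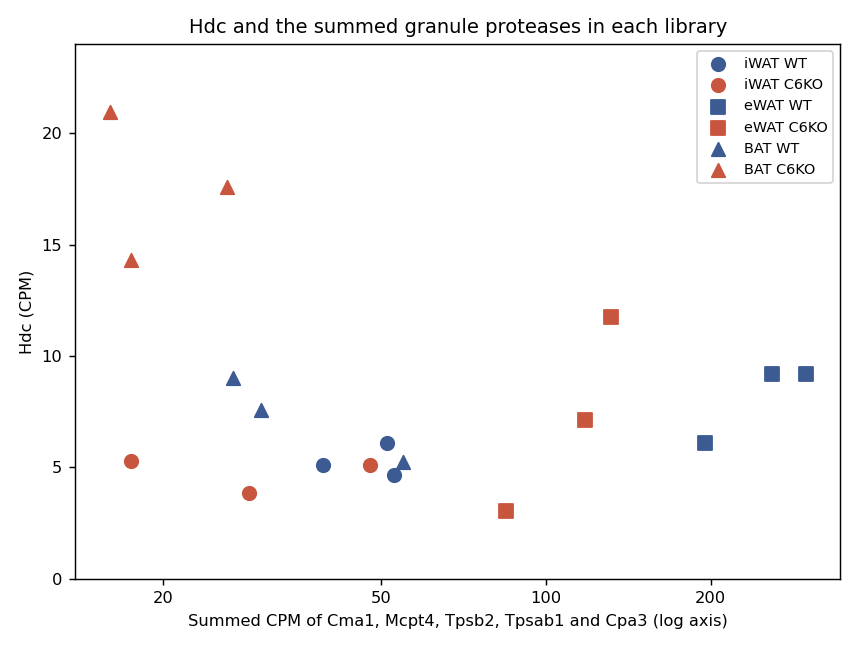
Hdc in CPM (vertical axis) against the summed CPM of Cma1, Mcpt4, Tpsb2, Tpsab1 and Cpa3 (horizontal axis, log scale) in each of the 18 libraries; symbols give the depot and colours the genotype. The BAT libraries of C6KO lie at the upper left, with protease sums of 15.98 to 26.15 CPM, and those of eWAT of WT at the right, with sums of 196 to 298 CPM.

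Between depots, eWAT of WT held 4.19 to 6.90 times the iWAT level of Cma1, Mcpt4, Tpsb2, Cpa3 and Mrgprb1. Mean Cma1 was 55.9 ± 12.3 CPM (SD, n = 3) in eWAT and 11.2 ± 1.78 CPM in iWAT. Mean Cpa3 was 56.1 ± 11.8 and 8.13 ± 1.23 CPM. The log2 fold changes were 2.32 (SE 0.421) for Cma1, 2.07 (SE 0.424) for Mcpt4, 2.44 (SE 0.320) for Tpsb2, 2.79 (SE 0.306) for Cpa3 and 2.72 (SE 0.489) for Mrgprb1, with adjusted p from 1.2e-05 to 0.00184 by edgeR. Tpsab1 was higher too, with 47 to 92 reads in eWAT against 0 to 12 in iWAT (adjusted p = 0.00239 by edgeR). With Gata2 lower (-0.65, SE 0.195, adjusted p = 0.0173 by edgeR), 7 of the 9 genes were called, where 25.7% of all genes were, and 6 were higher, where 12.8% were. The call of Gata2 was lost without WT replicate 1 of iWAT (adjusted p = 0.111) or WT replicate 1 or 2 of eWAT (0.0522 and 0.0588), all by edgeR. Hdc (0.63, SE 0.353) and Kit (0.24, SE 0.201) were not called.

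Within C6KO the direction was the same. Cma1 was higher in eWAT than in iWAT by 1.79 (SE 0.420), Mcpt4 by 1.49 (SE 0.423), Tpsb2 by 1.80 (SE 0.317), Cpa3 by 2.58 (SE 0.311) and Mrgprb1 by 2.46 (SE 0.502) on the log2 scale, and Gata2 was lower (-0.74, SE 0.194). These 6 were called, with adjusted p at most 0.0144 by edgeR, where 24.6% of all genes were. The call of Mcpt4 was lost without C6KO replicate 1 or 3 of iWAT (adjusted p = 0.0571 and 0.0526 by edgeR), and Hdc was called without C6KO replicate 1 of eWAT (0.992, adjusted p = 0.0173 by edgeR). Tpsab1, at 17 to 22 reads in eWAT and 8 to 16 in iWAT, was not called in C6KO (0.69, SE 0.771).

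BAT held less of the granule genes than eWAT in both genotypes. In WT, 8 of the 9 genes were called, 7 lower and Gata2 higher (0.92, SE 0.197), where 48.6% of all genes were called and 23.6% were called lower. The log2 fold changes of the lower genes in WT were -2.63 (SE 0.435) for Cma1, -2.51 (SE 0.440) for Mcpt4, -3.09 (SE 0.337) for Tpsb2, -2.61 (SE 0.309) for Cpa3, -2.96 (SE 0.511) for Mrgprb1 and -1.39 (SE 0.212) for Kit. Set against a floor of 3 reads a library, Tpsab1 was at least 10.9-fold higher in eWAT than in BAT of WT and at least 3.18-fold higher in C6KO. In C6KO all 9 genes were called, where 50.1% of all genes were, with Gata2 (0.999, SE 0.196) and Hdc (1.27, SE 0.353, adjusted p = 0.00542 by edgeR) higher in BAT. In C6KO the call of Tpsab1 was lost without C6KO replicate 1 or 2 of BAT (adjusted p = 0.0543 and 0.0531 by edgeR). Hdc in WT differed by -0.17 (SE 0.357) between BAT and eWAT and was not called.

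BAT and iWAT were closer. In WT only Kit was called, lower in BAT by 1.16 (SE 0.212) on the log2 scale with adjusted p = 0.000299 by edgeR, where 38.7% of all genes were called. Kit had 8.18 to 10.38 CPM in BAT and 15.2 to 25.2 CPM in iWAT of WT, without overlap. Without WT replicate 2 of BAT, Tpsb2 was called as well (-1.14, adjusted p = 0.00902 by edgeR). In C6KO, Hdc was higher in BAT (1.89, SE 0.361, adjusted p = 0.000406 by edgeR), and Kit (-0.64, SE 0.209) and Tpsb2 (-1.07, SE 0.343) were lower, 3 calls where 38.2% of all genes were called. Leaving out C6KO replicate 2 of BAT left the call of Hdc only. Tpsb2 was also lost without C6KO replicate 2 of iWAT or replicate 1 of BAT, and Kit without replicate 1 of iWAT or replicate 3 of BAT, while Cpa3 was called higher in BAT without replicate 2 of iWAT and Cma1 and Mcpt4 were called lower without replicate 1 of iWAT.

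**Figure D4:**
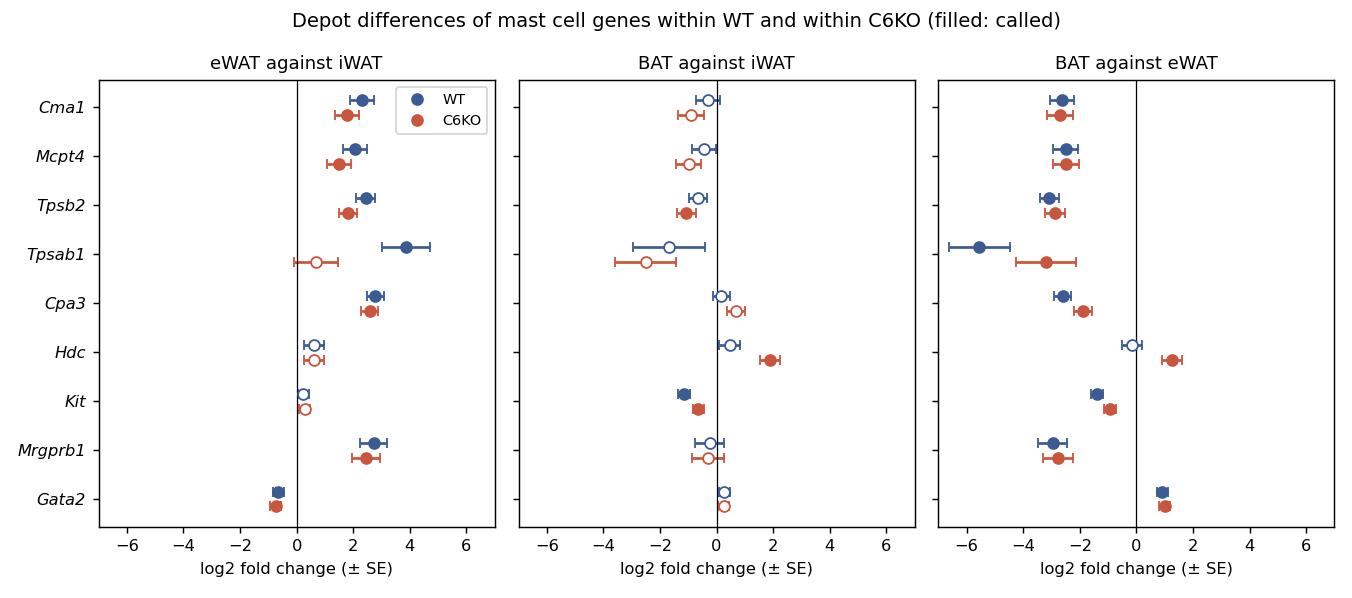
Log2 fold change between depots (horizontal axes, bars are SE) for the 9 genes within WT (blue) and within C6KO (red), from 1 edgeR fit over 18 libraries; filled symbols were called. The protease genes and Mrgprb1 lay to the right for eWAT against iWAT (2.07 to 3.87 in WT) and to the left for BAT against eWAT, whereas Gata2 lay on the opposite side in both.

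Levels of different genes were compared per kilobase of the counted transcript. In eWAT of WT the order was Tpsb2 (69.9 ± 14.7 CPM per kb, SD, n = 3), Mcpt4 (60.7 ± 11.7), Cma1 (51.6 ± 11.3) and Cpa3 (39.0 ± 8.19), and this order held in each of the 3 libraries, although the ranges of neighbours overlapped. Well below came Kit (4.87 ± 1.01), Gata2 (3.48 ± 0.153), Hdc (3.42 ± 0.757), Mrgprb1 (3.42 ± 0.957) and Tpsab1 (3.22 ± 0.976), and the last 4 of these lay within each other's spread. In BAT of WT the chymases and Tpsb2 had the highest means, with Mcpt4 at 10.57 ± 4.602, Cma1 at 8.23 ± 4.72 and Tpsb2 at 8.13 ± 3.93 CPM per kb, but Gata2 (6.58 ± 0.272) and Cpa3 (6.35 ± 1.03) lay within their spread. The place of Cma1 and Tpsb2 rested on WT replicate 2 (13.64 and 12.64), the library high in muscle and lymphocyte RNA. In WT replicates 1 and 3, Gata2 (6.771 and 6.708) lay above Cma1 (6.068 and 4.984) and Tpsb2 (6.355 and 5.406). In BAT of C6KO the order of the means was Gata2 (8.07 ± 2.54), Hdc (7.38 ± 1.40), Mcpt4 (4.78 ± 2.14), Tpsb2 (4.48 ± 1.76), Cpa3 (4.45 ± 0.837) and Cma1 (3.52 ± 1.38 CPM per kb). Gata2 and Hdc at the top lay within their spread, as did these 4 proteases, and Kit, Mrgprb1 and Tpsab1 followed at 2.16 ± 0.445, 0.207 ± 0.0442 and 0.0857 ± 0.0909 CPM per kb.

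The make-up of the protease RNA was compared as the share of each gene in the summed level of the 5 genes per kb. In eWAT, Tpsb2 made up 31.2% ± 1.17 in WT and 32.7% ± 1.39 in C6KO, Mcpt4 27.1% ± 0.593 and 26.8% ± 1.86, Cma1 22.95% ± 1.15 and 23.05% ± 1.94, and Cpa3 17.3% ± 0.292 and 16.6% ± 2.03 (SD, n = 3). The ranges of the genotypes overlapped for each of these 4 genes. Tpsab1 made up 1.42% ± 0.228 in WT and 0.890% ± 0.123 in C6KO, ranges that did not overlap. Across the WT depots the share of Cpa3 was 13.1% ± 2.11 for iWAT, 17.3% ± 0.292 for eWAT and 20.4% ± 4.79 for BAT.

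Across the 18 libraries, with the mean of each depot subtracted from the log2 CPM, the 10 pairs among Cma1, Mcpt4, Tpsb2, Cpa3 and Mrgprb1 had Pearson r from 0.743 to 0.961, median 0.854. With the mean of each of the 6 groups subtracted instead, r ran from 0.532 to 0.916, median 0.722. Libraries of 1 group that were high in one of these genes thus tended to be high in the others, with exceptions. In eWAT of C6KO, replicate 2 had the highest Cma1 (28.9 CPM) and the lowest Mrgprb1 (5.24 CPM). With depot means subtracted, Hdc had a median r of -0.18 with these 5 genes, Kit of 0.17 and Gata2 of -0.44, and with group means subtracted the medians were 0.05, -0.04 and -0.08. Tpsab1, which had few reads in iWAT and BAT, had r from 0.01 to 0.27 with these 5 genes with depot means subtracted. With group means subtracted its r ran from 0.15 to 0.41. These are descriptions over libraries that share depth and tissue make-up within each depot. Other genes were ranked by their r with the mean log2 CPM of all 9 members, with depot means subtracted. Members themselves differed in their r with that mean, as Tpsab1 (0.51), Kit (0.29), Hdc (0.12) and Gata2 (-0.19) were low. The 10 genes most like it were Olfml2b (0.83), Osr1 (0.83), Mrgprb2, the mast cell receptor for basic secretagogues (0.82), Rcn3 (0.79), Cldn1 (0.78), Plagl2 (0.78), Fsbp (0.77), Cdc25b (0.77), Il18 (0.77) and Srpx (0.77). With group means subtracted, Olfml2b alone of them stayed among the 10 highest, and Mrgprb2 had r = 0.70. Of the 10 genes listed, Srpx alone was called for genotype. It was lower in eWAT of C6KO by 0.82 (SE 0.124) on the log2 scale, adjusted p = 0.0419 by edgeR.

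Other genes of mast cell granules were partly below detection. Of 9 such genes, Mcpt2 and Mcpt9, proteases of the mucosal type or of the uterus, had 0 reads in all 18 libraries, and Mcpt1 had 2 reads in 1 library. None of the 9 was called between the genotypes in any depot by edgeR (5, 4 and 3 tested in eWAT, iWAT and BAT). In eWAT, Ndst2, an enzyme of heparin synthesis, and Slc18a2, the transporter that loads histamine into granules, had an unadjusted p below 0.05, with log2 fold changes of -0.28 (SE 0.109) and -0.61 (SE 0.224). For eWAT against iWAT in WT, 5 of 6 tested were called higher, namely Ctsg, Srgn, Ndst2, Slc18a2 and Rab27b, where 12.8% of all genes were. In C6KO none of these 5 was called for that contrast. Tpsg1 alone was called there, and higher, where 24.6% of all genes were called. The calls of Ctsg and Tpsg1 rested on few reads. Over 3 libraries, Ctsg had 46 reads in eWAT and 0 in iWAT of WT, and Tpsg1 had 19 and 2 in C6KO.

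Among 9 further receptors of mast cells, Il1rl1, the receptor for interleukin-33, was called lower in eWAT of C6KO. It was lower by 0.91 (SE 0.159) on the log2 scale with adjusted p = 0.0445 by edgeR, from a mean of 32.6 to 17.4 CPM. In iWAT it had 162, 173 and 162 reads in WT and 63, 81 and 71 reads in C6KO. In BAT it had 22, 63 and 36 reads in WT and 9, 21 and 25 reads in C6KO. None of these receptors was called between the genotypes in iWAT or BAT by edgeR. Fcer1a, the alpha chain of the high-affinity IgE receptor and a gene found mainly in mast cells and basophils, had 170, 201 and 105 reads in WT and 34, 76 and 33 reads in C6KO of eWAT. The 2 ranges did not overlap, and the log2 fold change of -1.75 (SE 0.347) had adjusted p = 0.0536 by edgeR. Ms4a2, the beta chain, had 80, 84 and 44 reads in WT and 23, 48 and 36 reads in C6KO, with adjusted p = 0.194 by edgeR. Mrgprb2 (-1.19, SE 0.338), Adora3 (-1.67, SE 0.461) and Fcer1g (-0.59, SE 0.154) were lower without overlap but not called, and P2rx1 was called only between depots. Of all 14889 genes tested in eWAT, 11.6% were lower without overlap. The median of the 7 tested in eWAT was -0.97, beside -0.90 for the 5 tested in iWAT and -1.09 for the 3 tested in BAT.

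Mediator synthesis was mixed. Of 9 genes, Ltc4s, which makes leukotriene C, was called higher in eWAT of C6KO (0.72, SE 0.125, adjusted p = 0.0436 by edgeR), at a mean of 92.3 against 56.1 CPM. Hpgds, which makes prostaglandin D and is also expressed by macrophages, was called lower in BAT of C6KO (-1.97, SE 0.352, adjusted p = 0.0328 by edgeR), at 3.17 against 12.5 CPM. Hpgds was also lower in iWAT, with 619, 643 and 806 reads in WT and 123, 62 and 402 reads in C6KO, and was not called there. In eWAT, Cyp11a1 (-1.45, SE 0.324), Tph1 (-1.42, SE 0.424), Alox5ap (-0.44, SE 0.160) and Hpgds (-0.46, SE 0.119) were lower without overlap and not called. Of all 14889 genes tested in eWAT, 11.6% were lower without overlap. Alox5, Ptgs1, Ptgs2 and Maob were called between depots only.

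Of 9 transcription factors, Spi1, a factor of the myeloid lineage shared with macrophages, was called lower in BAT of C6KO (-1.58, SE 0.276, adjusted p = 0.0314 by edgeR). Spi1 was also lower in iWAT, with 1026, 990 and 1163 reads in WT and 274, 206 and 648 reads in C6KO, and was not called there. Mitf, which acts downstream of Kit in mast cells, was lower without overlap in eWAT (-0.37, SE 0.104) and iWAT (-0.43, SE 0.140) but not called. Of all genes tested, 11.6% in eWAT and 12.3% in iWAT were lower without overlap. Runx1, Stat5a and Cbfa2t3 were called between depots only. Of 10 growth and recruitment factors, Ccl2, a chemokine that draws monocytes, was called higher in eWAT of C6KO (0.73, SE 0.118, adjusted p = 0.0432 by edgeR). In BAT its estimate was -2.70 (SE 0.647, adjusted p = 0.107 by edgeR), and the interaction of BAT against eWAT was called (-3.46, SE 0.621, adjusted p = 0.0186 by edgeR). Kitl, which encodes stem cell factor, overlapped between the genotypes in every depot, at a mean of 154 CPM in WT and 137 CPM in C6KO of eWAT (-0.16, SE 0.124, adjusted p = 0.566 by edgeR). It was called higher in BAT than in iWAT in both genotypes. Il33, Il10, Tslp, Cxcl12 and Tgfb1 were called between depots only, with Il33 higher in eWAT than in iWAT of WT by 2.51 on the log2 scale.

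None of 21 genes that signal from Kit and the IgE receptor was called between the genotypes by edgeR in any depot. In eWAT 11 of 21, in iWAT 10 of 20 and in BAT 10 of 19 tested had an unadjusted p below 0.05, where 17.6%, 16.5% and 13.2% of all genes did. Their median log2 fold change was -0.28, -0.62 and -0.49. Between eWAT and iWAT of WT, 14 of the 21 were called, where 25.7% of all genes were, 12 of them higher in eWAT, where 12.8% of all genes were (Lyn, Fyn, Syk, Btk, Lat2, Lcp2, Plcg2, Grb2, Vav1, Pik3cd, Inpp5d and Ptpn6) and Plcg1 and Ptpn11 lower. Most of these kinases and adaptors are shared with macrophages and lymphocytes. Cbl, Gab2, Pik3r1, Lat, Stim1 and Orai1 were called only in other depot comparisons.

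Genes that clear histamine and genes of its receptors were read beside Hdc. In BAT, 2 of 6 genes were tested. Hnmt, which inactivates histamine, had a mean of 35.9 CPM in C6KO and 53.0 CPM in WT (-0.55, SE 0.198, adjusted p = 0.270 by edgeR). It was lower without overlap, as were 12.4% of all genes tested in BAT. Hrh2, a histamine receptor, had 5.11 CPM in C6KO and 4.82 CPM in WT (0.08, SE 0.318). None of the 6 was called between the genotypes by edgeR in any depot, and 1, Hnmt in BAT, had an unadjusted p below 0.05. Hrh1 and Hnmt were called between depots.

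Markers of other cell types were read beside these values. The defining basophil gene Mcpt8 had 1 read in all 18 libraries together, and Prss34, a protease of basophils and some mast cells, had 170 reads in WT and 54 in C6KO summed over the 3 libraries of eWAT (-1.64, SE 0.387, adjusted p = 0.0687 by edgeR). Of 6 genes of melanocytes, which also bear Kit, Tyr was at 0 in every library, and their summed CPM ran from 2.21 to 9.06 over the 18 libraries, with none called between the genotypes by edgeR (1 had an unadjusted p below 0.05, in BAT). For comparison, 80 genes were called higher and 31 lower in C6KO among all 14889 tested in eWAT. These counts were 1 and 3 of 14533 in iWAT and 23 and 145 of 13595 in BAT. Among 12 macrophage genes, none was called in eWAT or iWAT and 4 were called lower in BAT of C6KO. Their summed CPM in eWAT ran from 5958 to 7309 in WT and from 3877 to 5014 in C6KO. It ran from 1817 to 2070 and from 486 to 1382 in iWAT, and from 745 to 982 and from 305 to 447 in BAT. Of the 12, the estimate was lower in C6KO for 11 in eWAT, 12 in iWAT and 10 in BAT. Their median log2 fold change was -0.52, -1.32 and -1.08, beside -0.01, 0.03 and -0.03 over all genes tested. Summed CPM over 8 adipocyte genes ran from 9340 to 11140 in WT and from 12980 to 16750 in C6KO of eWAT, and 2 were called higher. Summed CPM over 10 endothelial genes was 696 to 823 in WT and 1027 to 1200 in C6KO of eWAT, with 1 called higher. Over 10 genes of adipose progenitors, summed CPM did not overlap between the genotypes in any depot, at 6824 to 8640 in WT and 5331 to 6575 in C6KO of eWAT, 5077 to 5123 and 1938 to 3536 in iWAT, and 1371 to 1989 and 862 to 1123 in BAT, with 2 called lower in BAT and none elsewhere. Adipocyte sums ran from 25020 to 27800 in WT and from 33490 to 38350 in C6KO of iWAT, and from 15590 to 25780 and from 18000 to 22210 in BAT. Endothelial sums ran from 1535 to 2092 and from 1618 to 2158 in iWAT, and from 1186 to 1565 and from 1708 to 1769 in BAT. The part of these cells in the difference of the mast cell genes was not tested.

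Set against macrophages, the protease sum of eWAT was 38.9 ± 8.29 CPM per 1000 CPM of the macrophage genes in WT (range 32.8 to 48.3). In C6KO it was 24.9 ± 3.98 (21.9 to 29.4), without overlap. In iWAT the same ratio overlapped (18.9 to 28.2 in WT and 20.8 to 92.2 in C6KO), and so it did in BAT (30.8 to 73.7 and 35.8 to 61.4). The 9 neutrophil genes, from a cell that can also express Hdc, summed to 4.30 to 9.49 CPM in WT and 4.58 to 9.08 CPM in C6KO of BAT. Of the 9, Ly6g, Mpo and Camp were at 0 in both groups, and Ly6g was at 0 in iWAT and eWAT too. The part of neutrophils in the level of Hdc was not tested.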

How the data were processed

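Per the labels and the study's methods, poly(A) RNA was sequenced on a NextSeq 2000 system, and the authors mapped the reads to mm10 with STAR and made raw counts per gene with HOMER's analyzeRepeats.pl over exons, with 1 transcript kept for each gene. Tool versions and the strand setting were not given in the sources used here. The deposited counts of the 3 depots were joined by gene symbol. The kept transcript differed between depots for 2619 genes and for 0 of the 9 reported here. The 9 genes and all lists were chosen with earlier results of these data known.

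Genotypes were compared within a depot (6 libraries), and depots and interactions in a fit over 18 libraries, with edgeR 4.0.16 (TMM scaling, filterByExpr, robust quasi-likelihood test) in R 4.3.3, with Benjamini-Hochberg adjustment over all genes tested. SE is the log2 fold change divided by the square root of the F statistic. DESeq2 1.42.0 was an alternative, and the edgeR and DESeq2 steps were tested on simulated counts. Within each group of 3, no 2 libraries were identical. The labels call the replicates biological without naming animals, so p-values measure the spread between these libraries. The sources used here do not say whether libraries of different depots came from the same mice, so depots may share mice. Replicate numbers were not used as pairs, since no comparison had r above 0.1 in every pair of libraries with the same number, although all were above 0 for eWAT against iWAT in WT (0.0439 to 0.219) and for BAT against iWAT in both genotypes (0.0189 to 0.0732 in C6KO and 0.0401 to 0.0590 in WT). The named genes are all 9 members, Casp6, further mast cell genes called in any comparison or with the smallest p of a list without calls, and the 10 genes most like the members, except for 1 result that is not reported here. Mouse promoter sequences and motif shares came from RefSeq. The transcript sequences compared and the overlapping genes came from GENCODE. Statistics were joined in Python 3.11.15.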

Additional observations from a re-analysis of the deposited data

How the results depend on the processing

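In eWAT, the number of the 9 genes called between the genotypes was 4, and 0 with scaling by total counts, with glmTreat against a 1.5-fold change or with all 18 libraries in 1 fit, and from 0 to 1 with 1 library left out. In BAT it was 0, and 1 (Hdc) with the size factors of DESeq2, with no filter on low counts, with at least 10 counts in every library and with DESeq2. For BAT against iWAT it was 3 in C6KO, 1 with glmTreat, 5 with DESeq2 and from 1 to 4 with 1 library left out, and 1 in WT and from 1 to 2 with 1 library left out. With the replicate number as a block it was 3 in eWAT, 0 in iWAT and in BAT, and 5 for BAT against iWAT in C6KO. The remaining counts stayed within 1.5 times. Leaving out 1 library turned 6 estimates that had not been called. Over these fits Hdc in eWAT ran from -0.683 to 0.224 (without C6KO replicate 1), Tpsab1 for BAT against iWAT in WT from -5.03 to 1.14 (without iWAT replicate 1), Mrgprb1 for that contrast from -0.867 to 0.00708 (without BAT replicate 1) and in C6KO from -0.795 to 0.393 (without iWAT replicate 3), Gata2 for BAT against iWAT in C6KO from 0.385 to -0.0337 (without BAT replicate 3), and Hdc for BAT against eWAT in WT from -0.358 to 0.0296 (without BAT replicate 2). The cause of these changes was not tested. Over all genes, the calls between genotypes (higher, then lower) were 1 and 3 by edgeR and 169 and 505 by DESeq2 for iWAT, 80 and 31 against 429 and 189 for eWAT, and 23 and 145 against 156 and 389 for BAT. Scaling by total counts gave 39 and 28 in eWAT, moved the median of all genes by 0.14 for eWAT against iWAT and by -0.29 for BAT against eWAT in WT, and changed the split of calls there from 2034 and 2042 to 2665 and 1528 and from 3962 and 3746 to 2888 and 4987. In C6KO these splits changed from 2232 and 1670 to 2742 and 1088 and from 3746 and 4199 to 2801 and 5180, and for BAT against iWAT in WT from 3185 and 2962 to 2552 and 3641. For the interactions DESeq2 called 9 and 5 (eWAT against iWAT), 64 and 100 (BAT against iWAT) and 52 and 289 (BAT against eWAT), where edgeR called 0 and 0, 11 and 18, and 8 and 77. Counts too low for the filter left Tpsab1 untested in iWAT and BAT and Mrgprb1 untested in BAT.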
